A study of Drosophila melanogaster with 3 samples.

Results

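The cytochrome P450 genes of Drosophila melanogaster are described here in 3 RNA sequencing libraries of adult muscle in which the homeobox transcription factor gene Ptx1 was targeted by RNA interference (RNAi). Members were all gene rows whose symbol consists of Cyp, a family number and a lower-case subfamily letter, as in Cyp4g1, and 85 of the 15682 listed genes met this rule. The libraries form 1 group, in which the titles join Mhc-Gal4 to an RNAi construct labelled PtxRNAi2. Mhc-Gal4 is a driver that uses the promoter of the myosin heavy chain gene and is active in muscle. All came from male flies aged 10 days, with the tissue given as skeletal muscle and the genotype as Pitx RNAi. Pitx is the vertebrate name of Ptx1. The samples are called libraries 1, 2 and 3 by their sample numbers. Nothing in the labels shows that the libraries were made from different flies, so each SD and p-value measures only the spread between these samples, which may be technical. The control libraries to which the series refers were not analysed here, so no value below shows an effect of the RNAi on a P450 gene.

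Cytochrome P450 enzymes hold a heme group and use it to insert an atom of oxygen into small, mostly fatty molecules. In insects they make and break down the steroid hormone ecdysone, make the hydrocarbons that waterproof the cuticle, and oxidise plant toxins and insecticides. Insect P450 genes fall into the CYP2, CYP3, CYP4 and mitochondrial clans. Enzymes of the endoplasmic reticulum take electrons from the reductase Cpr and the mitochondrial ones from ferredoxins, and most detoxifying activity is known from the gut, the Malpighian tubules (the kidney of the fly) and the fat body.

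Total gene counts were 35988267 in library 1, 50794384 in library 2 and 52675322 in library 3. Levels are given in CPM, each gene's count scaled to a common library total, and a mean is followed by its SD with n = 3. All 10 muscle markers examined were detected, meaning at 1 CPM or more in every library, and their summed level lay between 16740 and 17337 CPM. Most listed markers of other tissues were detected too. Summed levels were 8591 to 9851 CPM for 7 gut markers and 6510 to 7189 CPM for 6 fat body markers. They were 403 to 418 CPM for 6 genes of the oenocyte (the hydrocarbon-making cell) and 149 to 155 CPM for 7 genes of the Malpighian tubule list. All 7 gut, 4 fat body, 5 oenocyte and 6 Malpighian tubule genes were detected. Among fat body markers, Rfabg alone stood at 5231, 5970 and 5951 CPM, and Fbp1 and Fbp2 were not detected. In bulk RNA, fewer cells of a type and less RNA per cell cannot be told apart. Library 1 stood apart in eye RNA: 6 photoreceptor markers summed to 206 CPM there, against 1546 and 1041 CPM in libraries 2 and 3. All 6 were called as variable between libraries by the edgeR test applied to all genes (adjusted p from 1.19e-28 to 0.00601), the only companion list with a call. Neuron markers summed to 404, 677 and 558 CPM. Of 6 testis markers, 1 was detected. The target gene Ptx1 stood at 15.7, 12.3 and 12.1 CPM.

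P450 genes held 1.02%, 0.937% and 1.004% of all gene counts in libraries 1, 2 and 3, a mean of 0.986 ± 0.0426%. Of the 85 members, 72 were detected (84.7%), beside 9579 of all 15682 genes (61.1%). A further 2 members, Cyp4ad1 and Cyp312a1, reached 1 CPM in some libraries, and 11 stayed under it in all. A mean of at least 100 CPM was reached by 20 members, and the 10 members with the most counts held 71.8 ± 1.72% of P450 counts. Most P450 counts thus came from a few members, as the plot of levels by gene and library shows.

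**Figure D1:**
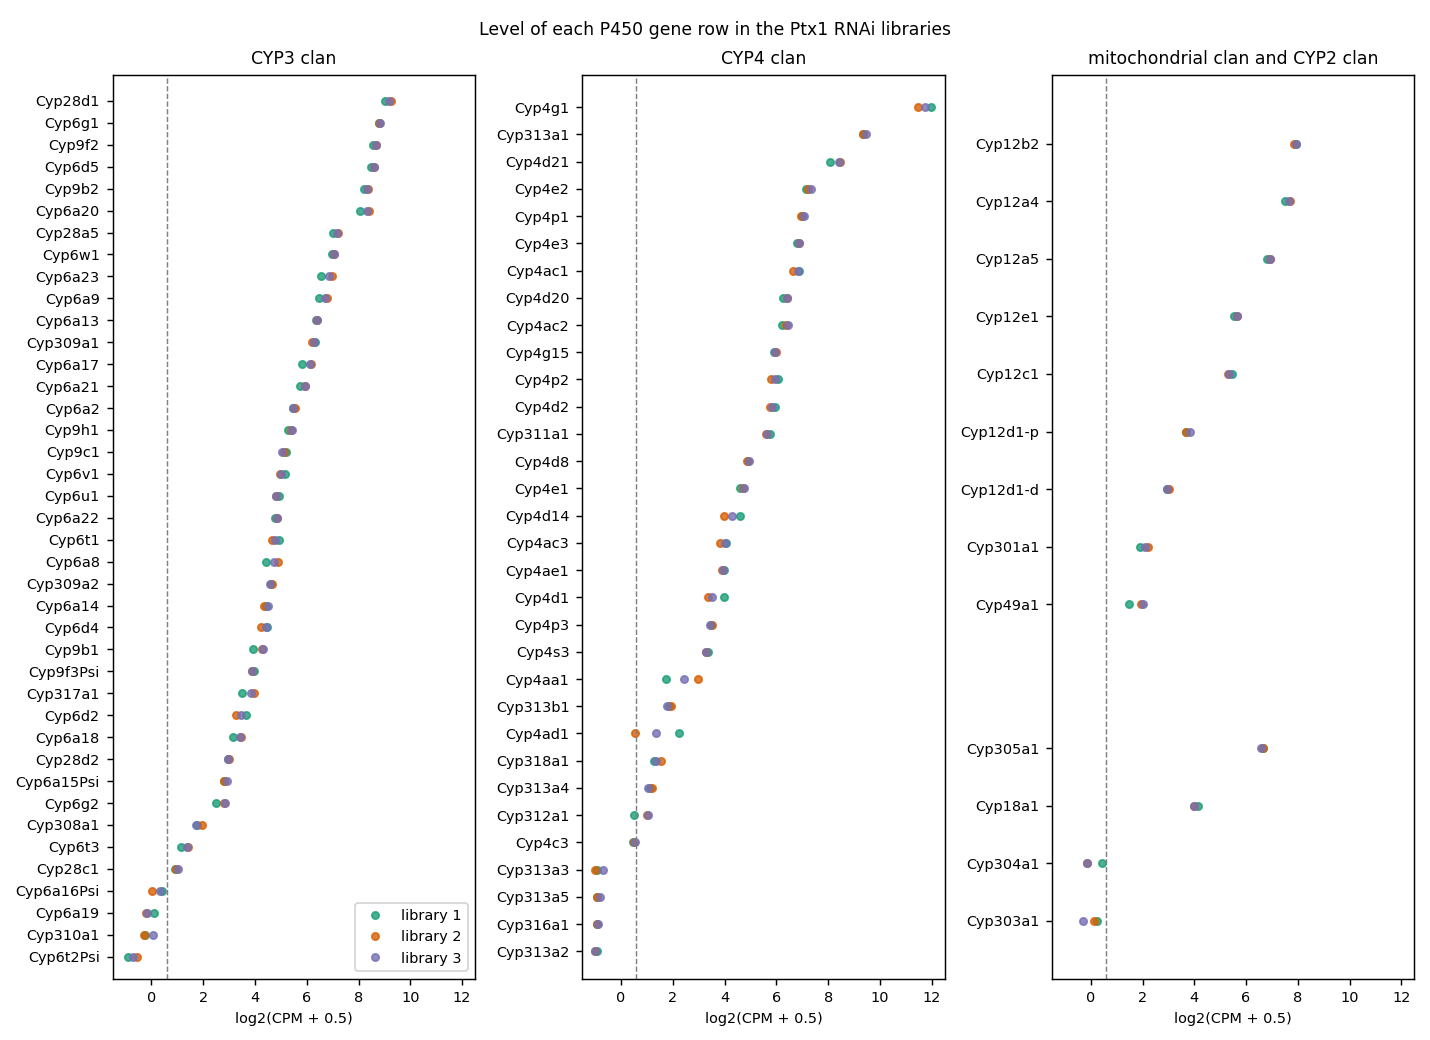
Level of every P450 gene row as log2(CPM + 0.5), 1 point per library, with members ordered by mean level within each clan and a dashed line at 1 CPM. Cyp4g1 lies to the right of all others, and the points of most members fall close together.

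Counts are not corrected for transcript length. CPM values given side by side for different genes are therefore not a comparison of their levels. P450 genes are compared only after their CPM are divided by the gene's span in RefSeq (assembly Release 6 plus ISO1 MT), a span that includes introns and so understates genes with long ones. All 85 members matched that table. The 10 members highest by mean CPM were also the 10 highest per kilobase of span.

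In the CYP4 clan, Cyp4g1 led the whole family. It encodes the oxidative decarbonylase that makes cuticular hydrocarbons in oenocytes. It stood at 4049, 2836 and 3452 CPM in libraries 1, 2 and 3, a mean of 3446 ± 606 CPM, and ranked 20th by mean CPM among all genes. The exact 95% intervals of these values, which cover counting error only, ran from 4028 to 4069, 2822 to 2851 and 3437 to 3468 CPM. They did not overlap, but with 144066 to 181855 counts per library such intervals are narrow. Cyp4g1 was not called as variable between libraries by the edgeR test applied to all genes. Library 1 was highest and library 2 lowest. Per kilobase of span Cyp4g1 reached 1512 ± 266 CPM, against 331 ± 15.7 CPM for the next member, Cyp313a1. Cyp4g1 alone held 34.8 ± 4.80% of P450 counts. The oenocyte genes fixed beside it did not share its order of libraries as a list, with sums of 403, 418 and 412 CPM.

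Cyp313a1 stood at 657, 642 and 703 CPM, whereas its relatives Cyp313a2, Cyp313a3 and Cyp313a5 had between 0 and 6 counts per library. With 0 counts in library 2, the level of Cyp313a2 could still be as high as 0.0591 CPM there, taken as 3 counts of the total. Cyp4d21, also called sex-specific enzyme 1 and known from the fat body of the male head and from courtship, stood at 266, 347 and 337 CPM. Library 1 was the low one, as it was for the photoreceptor markers, and the part of head tissue in this level was not tested. Cyp4e2 and Cyp4p1 had means of 150 ± 9.17 and 127 ± 4.57 CPM. Cyp4e3, which in Malpighian tubules is linked to permethrin tolerance, stood at 112, 115 and 117 CPM. Cyp4g15, the closest relative of Cyp4g1 and known from the nervous system, stood at 59.5, 63.1 and 60.4 CPM, and per kilobase of span at 9.87 CPM. Of the 32 members of the CYP4 clan, 25 were detected.

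The CYP3 clan, which holds most of the known detoxifying P450 enzymes of the fly, was the largest, with 36 of 40 members detected. Its members with the highest mean CPM were Cyp28d1 at 571 ± 43.5 CPM, Cyp6g1 at 447 ± 3.14 CPM, Cyp9f2 at 400.1 ± 20.2 CPM, Cyp6d5 at 377 ± 18.5 CPM and Cyp9b2 at 315 ± 13.8 CPM. Per kilobase of span, Cyp28d1 stood at 287 ± 21.9 CPM, and Cyp6g1 and Cyp9b2 at 162 ± 1.14 and 169 ± 7.42 CPM.

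Cyp6g1, whose overexpression gives resistance to DDT and imidacloprid, had the smallest coefficient of variation (SD as a percentage of the mean) of all 72 detected members, at 0.704%, with 444, 445 and 450.2 CPM. Its relative Cyp6g2, which also gives resistance when overexpressed, stood at 5.08, 6.48 and 6.76 CPM. Cyp6w1, linked to DDT resistance, had a mean of 130.01 ± 3.96 CPM, and Cyp6a2, which metabolises DDT and is induced by phenobarbital, one of 44.2 ± 1.32 CPM. Cyp6a8, induced by phenobarbital and caffeine, stood at 21.1, 29.1 and 26.0 CPM. Cyp6d2, which protects flies from camptothecin, stood at 12.2, 9.06 and 10.4 CPM. Of the 10 members in the detoxification group, which spans several clans, all were detected, and the group held 10.1 ± 0.637% of P450 counts.

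A pair of CYP3 genes is known from behaviour. Cyp6a20, linked to aggression between males, stood at 263, 338 and 322 CPM, and Cyp6a17, linked to temperature preference, at 55.8, 71.6 and 69.5 CPM. Both were lowest in library 1, as Cyp4d21 was and as were 37 of the 72 detected P450 genes (51.4%). Both also lie in the same run of neighbouring P450 genes, described below, whose 8 detected members were all lowest there.

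All 9 members of the mitochondrial clan under the rule were detected. Cyp12b2 led at 237 ± 5.98 CPM, followed by Cyp12a4, whose overexpression gives resistance to lufenuron, at 195 ± 12.1 CPM and Cyp12a5 at 118 ± 5.81 CPM. Cyp12e1 and Cyp12c1 had means of 48.2 ± 2.60 and 40.6 ± 2.03 CPM. The near-identical copies Cyp12d1-p and Cyp12d1-d, induced by caffeine and phenobarbital, stood at 12.8 ± 1.01 and 7.26 ± 0.273 CPM, and the division of reads between them is uncertain. Cyp301a1, needed for the adult cuticle, stood at 3.28, 4.17 and 3.74 CPM.

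The CYP2 clan had 4 members under the rule, of which 2 were detected. Cyp305a1 had a mean of 99.0 ± 2.91 CPM. Cyp18a1, which inactivates the active hormone 20-hydroxyecdysone, stood at 17.0, 15.4 and 15.4 CPM. Cyp303a1, needed for the structure of sensory bristles, was under 1 CPM in each library, with 25, 30 and 17 counts, and Cyp304a1 had 31, 21 and 21 counts.

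Most genes of ecdysone synthesis had few counts. They are known as the Halloween genes, and their P450 members carry names outside the rule. Of these 6 genes, only shd, which turns ecdysone into 20-hydroxyecdysone in peripheral tissues, was detected, at 3.22, 4.55 and 3.93 CPM. The genes of the earlier steps, phm, dib, sad, spo and spok, had at most 46 counts in any library, and spo had 0 in all. Cyp6t3, needed for hormone synthesis in the larval hormone gland, stood at 1.72, 2.15 and 2.13 CPM. The ecdysone receptor gene EcR had a mean of 44.4 ± 8.51 CPM and its partner usp one of 58.5 ± 4.22 CPM. Of 8 listed genes of ecdysone synthesis outside the P450 family and of ecdysone response, 5 were detected, and none of the 6 tested was called.

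Cyp4g1 set the balance between clans. With all members, the CYP4 clan held 55.5 ± 3.75% of P450 counts, the CYP3 clan 36.6 ± 3.30%, the mitochondrial clan 6.77 ± 0.406% and the CYP2 clan 1.18 ± 0.0710%. Without Cyp4g1 the CYP3 clan held the most, 56.1 ± 0.960%, and the CYP4 clan 31.7 ± 0.801%. The SD of both shares was smaller without that gene. Without Cyp4g1, P450 genes held 0.641 ± 0.0260% of all gene counts.

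**Figure D2:**
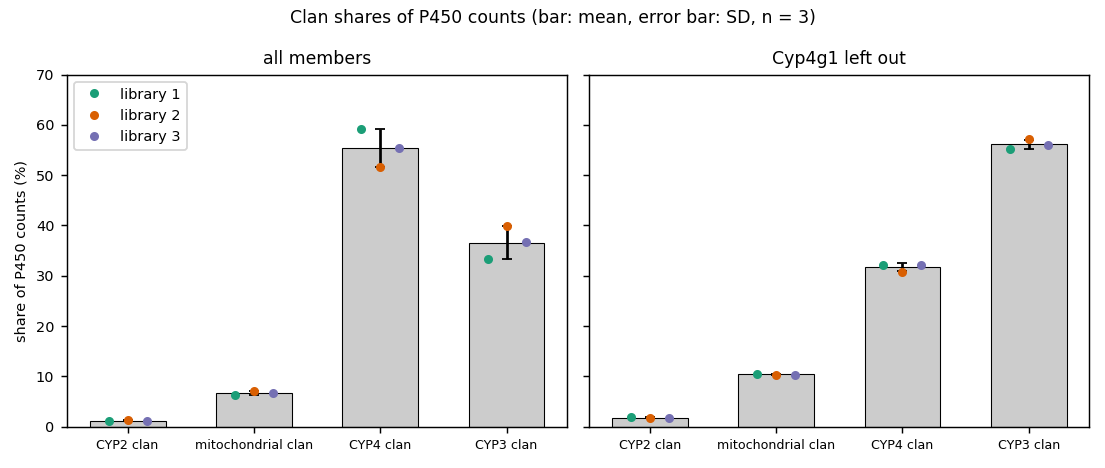
Share of P450 counts (%) held by each clan, with all members on the left and without Cyp4g1 on the right; bars are means, error bars are SDs, and points are the 3 libraries. The CYP4 share falls from 55.5% to 31.7% when Cyp4g1 is left out.

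Many P450 genes lie next to each other in the fly genome, where they arose by duplication. In the RefSeq table, 40 members form 14 runs in which no other listed gene stands between members. Neighbours differed in level. Per kilobase of span, Cyp28d1 stood at 287 CPM beside Cyp28d2 at 3.51 CPM, Cyp9b2 at 169 CPM beside Cyp9b1 at 8.89 CPM, and Cyp6g1 at 162 CPM in a run with Cyp6g2 at 2.99 CPM and Cyp6t3 at 1.14 CPM. Cyp12a4 and Cyp12a5 were closer, at 98.5 and 57.5 CPM per kilobase. The run of Cyp313a5, Cyp313a2 and Cyp313a3 had no detected member. Reads shared between close relatives may have been dropped or split, so these levels are uncertain to that extent.

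**Figure D3:**
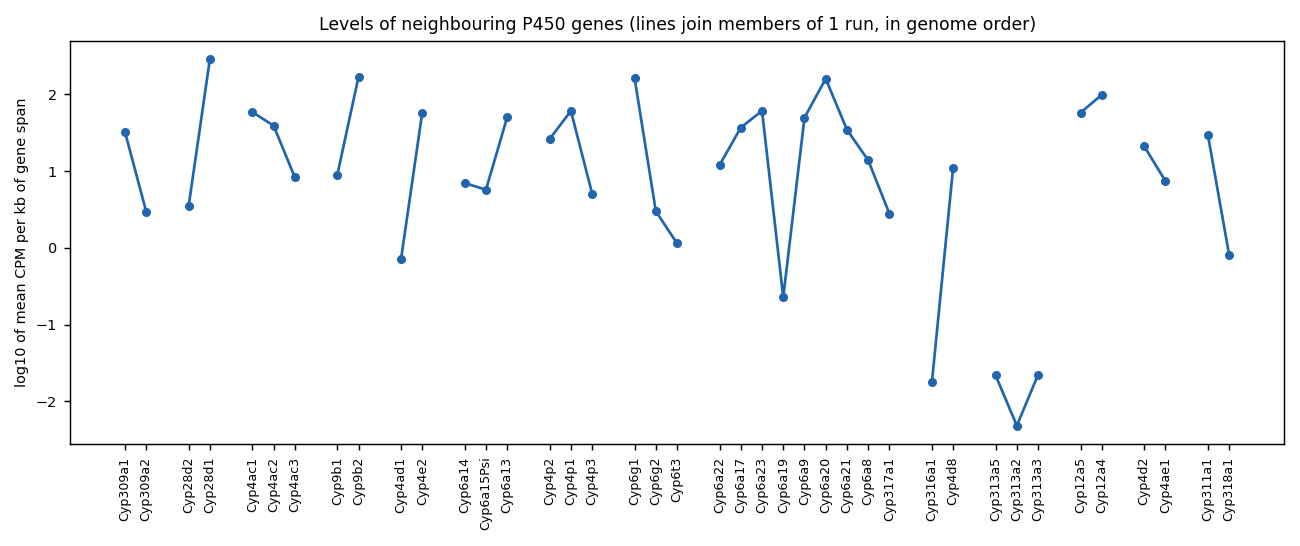
Mean level per kilobase of gene span on a log10 scale for the 40 P450 genes in 14 runs of neighbours, in genome order; lines join members of a run. Levels within a run differ by more than a factor of 10 in runs such as that of Cyp6g1.

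Of the 4 members whose symbols end in Psi, for pseudogene, RefSeq calls 2 pseudogenes, Cyp6a15Psi and Cyp6t2Psi, and lists the others as the protein-coding genes Cyp9f3 and Cyp6a16. Cyp9f3Psi stood at 15.005, 14.1 and 14.2 CPM and Cyp6a15Psi at 6.47, 6.48 and 7.08 CPM, so a gene marked as a pseudogene in both sources was detected. Cyp6a16Psi and Cyp6t2Psi stayed under 1 CPM. Reads from close relatives could be counted on these rows.

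Differences between the libraries were tested across all genes with edgeR's goodness-of-fit test, which asks whether a gene varies more than genes of like abundance. Of 10522 genes tested, 216 were called at an adjusted p below 0.05, or 2.05% of those tested. Of the 85 P450 genes, 80 passed the filter on low counts and 1 was called, Cyp4ad1, a share near that background. At an unadjusted p below 0.05 there were 3 P450 genes, beside 569 of all genes (5.41%). Without libraries 1, 2 and 3 in turn, 0 P450 genes were called by edgeR, beside 1.06%, 0.765% and 1.15% of all genes tested. In these settings 3, 3 and 2 of the 80 P450 genes tested had an unadjusted edgeR p below 0.05 (3.75%, 3.75% and 2.5%). The shares over all genes tested were 4.15%, 4.01% and 4.33%. With a common dispersion 2 were called, beside 2.32% of all genes, and with no filter on low counts 1, beside 1.79%.

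Cyp4ad1 stood at 4.22, 0.965 and 2.05 CPM, from 152, 49 and 108 counts. Library 1 was the high one and library 2 the low one. The exact 95% intervals were 3.58 to 4.95, 0.714 to 1.28 and 1.68 to 2.48 CPM. The range was 1.69 on the log2(CPM + 0.5) scale, with an edgeR adjusted p of 0.00847. The mean of 2.41 ± 1.66 CPM became 1.51 CPM without library 1. The call rested on all libraries: the edgeR adjusted p was 0.633, 0.717 and 0.124 without libraries 1, 2 and 3. No role of Cyp4ad1 is given here, and its neighbour Cyp4e2 had a range of 0.18 on the same scale.

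Cyp4aa1 moved the other way without passing, at 2.81, 7.38 and 4.94 CPM (edgeR adjusted p = 0.170). Library 2 was highest and library 1 lowest, in the order of the photoreceptor markers, and the part of eye or head tissue in these values was not tested. Cyp4aa1 was called when a common dispersion replaced the trended one (edgeR adjusted p = 0.0110). Cyp4g1 was not called, with a range of 0.51 on the log2(CPM + 0.5) scale and an unadjusted edgeR p of 0.0602. On the same scale, the other detected members with a range over 1.5-fold were Cyp4d1, at 15.4, 9.71 and 10.9 CPM, and Cyp4d14, at 23.7, 15.2 and 18.9 CPM. Cyp49a1, at 2.28, 3.35 and 3.51 CPM, had a ratio of 1.54 in plain CPM and fell below that limit with the added 0.5. None of the 3 was called.

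**Figure D4:**
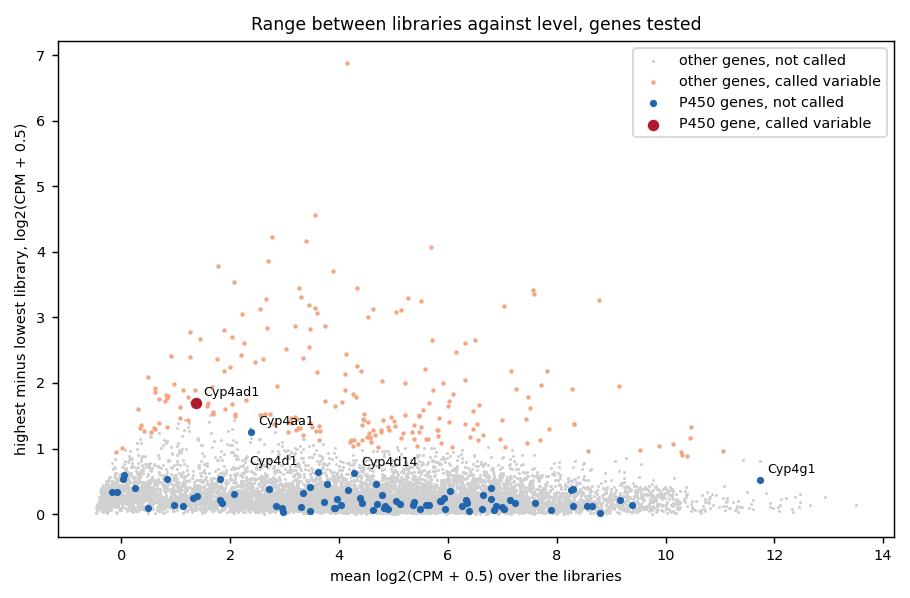
Range between the highest and lowest library against mean level, both in log2(CPM + 0.5), for the 10522 genes tested; blue points are P450 genes that were not called, the red point is Cyp4ad1, and small points are other genes. Most P450 genes lie low in the cloud of other genes.

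Most detected members varied little. Of the 72 detected, 52 had a coefficient of variation under 10%, 16 had one of 10 to 20%, and 4 had a higher one. The median was 6.16%, beside 7.86% over all 9579 detected genes, which differ from the P450 genes in level. The median range was 0.17 on the log2(CPM + 0.5) scale, beside 0.21 over all detected genes. On that scale 3 of 72 members (4.17%) exceeded a 1.5-fold range beside 7.97% of all detected genes. All these values leave out Cyp4ad1, which was under 1 CPM in library 2 and so not detected. Its coefficient of variation was 68.8% and its range 1.69 on that scale. The median deviation of the detected members from their own mean was −0.04, 0.03 and 0.03 in libraries 1, 2 and 3, beside 0.0042, −0.01 and 0.01 over all detected genes. Library 1 was the lowest for 37 of the 72 members (51.4%) and for 42.9% of all detected genes, and after TMM scaling for 36 members and 41.3%.

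Detected neighbours in the longest run of P450 genes shared their lowest library. This run holds 9 genes, in genome order Cyp6a22, Cyp6a17, Cyp6a23, Cyp6a19, Cyp6a9, Cyp6a20, Cyp6a21, Cyp6a8 and Cyp317a1. All 8 detected members were lowest in library 1, on the CPM scale and after TMM scaling. On the CPM scale, so were 23 of the 36 detected members of the CYP3 clan (63.9%), which include these 8, and 42.9% of all detected genes. Cyp6a23 stood at 94.3, 125 and 114 CPM, Cyp6a9 at 88.1, 108 and 104 CPM, and Cyp6a21 at 52.9, 61.0 and 60.4 CPM. Cyp317a1, at the end of the run, stood at 10.8, 15.02 and 14.0 CPM. The smallest difference was that of Cyp6a22, at 26.8, 28.3 and 28.6 CPM. Cyp6a19, with 21, 18 and 21 counts, was not detected and was highest in library 1. The median difference of library 2 from library 1 over the 8 detected genes was 0.36 in log2 CPM, beside 0.07 over all detected P450 genes and −0.02 over all detected genes. From library 2 to library 3, the median difference over these 8 genes was −0.07, beside 0.0070 over all detected P450 genes and 0.02 over all detected genes.

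None of these genes was called by edgeR, the run was singled out after its values were seen, and it was not tested as a set. As sums, the photoreceptor, neuron, fat body, oenocyte and muscle markers were also lowest in library 1, the last 2 of them by little, whereas the gut and Malpighian tubule lists were highest there. Among detected markers, library 1 was lowest for all 6 photoreceptor and all 4 neuron genes. It was lowest for 3 of 4 fat body, 3 of 5 oenocyte and 4 of 10 muscle genes. It was highest for 1 fat body, 2 oenocyte and 5 muscle genes, and for 5 of 7 gut and 4 of 6 Malpighian tubule genes. The part of these tissues in the low values of the run in library 1 was not tested.

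**Figure D5:**
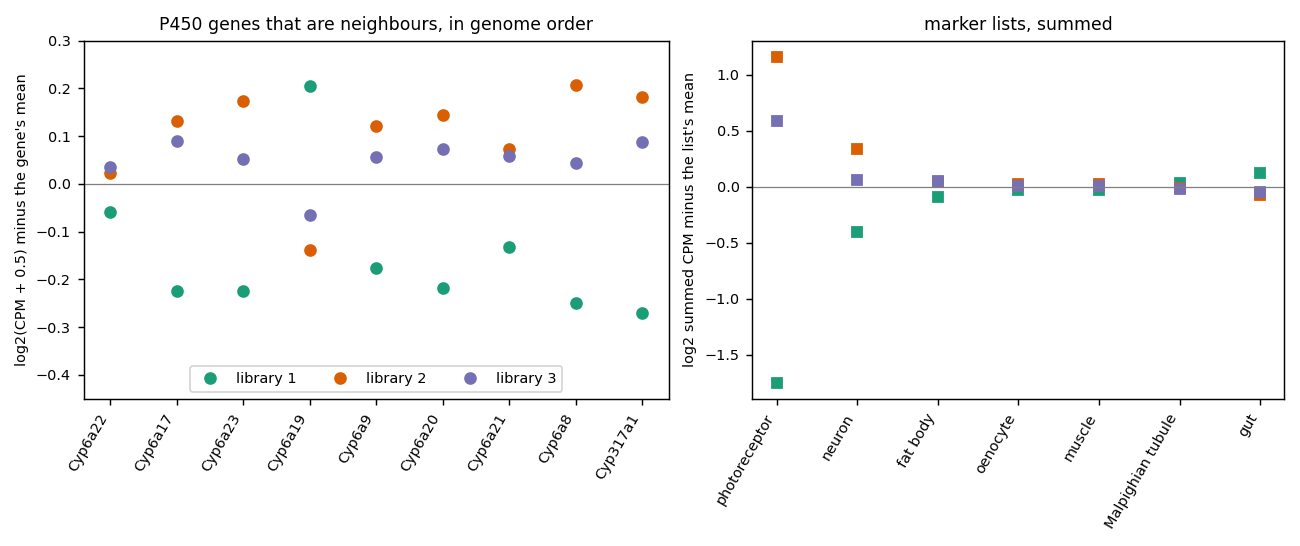
Left, deviation of log2(CPM + 0.5) from each gene's mean in the 3 libraries for the 9 neighbouring P450 genes, in genome order; right, the same for the log2 summed CPM of marker lists, on a wider axis. Library 1 is lowest for every gene of the run but Cyp6a19, which was not detected, and photoreceptor markers differ most.

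All 6 genes listed as partners of P450 enzymes were detected. Cpr, the reductase of the endoplasmic reticulum, stood at 456, 411 and 421 CPM. Cyt-b5, a carrier that assists some P450 enzymes, stood at 322, 286 and 300.5 CPM. Cyt-b5-r, listed with them though not established here as an electron donor of P450 enzymes, stood at 933, 903 and 925 CPM. On the mitochondrial side, the ferredoxin reductase dare stood at 27.3 ± 1.43 CPM, and the ferredoxin genes Fdxh and CG1319 at 20.02 ± 1.55 and 53.1 ± 2.06 CPM. All 6 genes of the list, Cyt-b5-r included, were highest in library 1, also after TMM scaling. On the CPM scale 43.7% of all detected genes were highest there, and none of the 6 was called.

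All 9 genes on a list of regulators of detoxification and hormone response were detected and none was called. The gene cnc, whose product switches on many detoxification genes, stood at 303, 343 and 328 CPM. Its inhibitor Keap1 had a mean of 19.7 ± 1.24 CPM, and Hr96, a nuclear receptor for foreign compounds, one of 34.3 ± 0.409 CPM. Met and gce, the receptors of juvenile hormone, had means of 23.4 ± 6.12 and 124 ± 13.5 CPM.

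On the hydrocarbon path that Cyp4g1 completes, 7 of 10 listed genes were detected and none of the 8 tested was called. The desaturase desat1 stood at 3164, 3028 and 3182 CPM and the fatty acid synthase CG3523 at 2244, 2064 and 2071 CPM, and both also serve fat synthesis in other tissues. Of genes with a narrower place in oenocytes, the fatty acid synthases v(2)k05816 (CG3524) and CG17374 had means of 106 ± 10.4 and 144 ± 10.3 CPM. The elongase eloF, listed with them, was not detected, at 0.156 ± 0.0297 CPM. All flies here were male, and the part of sex in this value was not tested. Of the conjugating enzymes that act after P450 oxidation, 17 of 21 glutathione transferase genes and 13 of 17 UDP-glycosyltransferase (Ugt) genes were detected. None of the 18 and 15 tested was called. The members with the most counts were GstD1 at 969, 809 and 861 CPM and Ugt35b at 136, 212 and 186 CPM.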

How the data were processed

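Whole-number counts per gene symbol were deposited by the authors without normalization, as the files themselves show. CASAVA 1.7, BWA, STAR and HTSeq are named in the submitters' processing notes without their roles. The build named there, mm9, is a mouse build, and the fly build, the annotation and the use of strand are not known from these sources, so overlapping and antisense genes are uncertain. The 5 summary rows of each file, between 22.0% and 25.1% of listed counts, entered neither totals nor tests. The 6 further columns of per-sample values, of samples outside this series' sample list, were not used.

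CPM were computed from gene totals in Python 3.11.15. Exact Clopper-Pearson intervals are at 95% (scipy 1.17.1), and the limit at a count of 0 is 3 counts of the total; both cover counting error only. Differences between libraries were tested with edgeR 4.0.16 (intercept-only fit, TMM, filterByExpr, trended dispersion, chi-square goodness of fit on 2 degrees of freedom, Benjamini-Hochberg adjustment over all genes tested, threshold 0.05) and the procedure was tested on simulated data. Size factors of DESeq2 1.42.0 served as an alternative.

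Of 92 entries given by symbol in the companion lists, 91 matched a row, through older names where needed. The lists of 21 glutathione transferase and 17 UDP-glycosyltransferase genes were all rows whose symbols start with Gst and a class letter or with Ugt and a number. Named members were the 5 with the highest mean CPM in each clan, those with a role listed and those called; further ones were named after their values were seen. Members and lists were chosen with earlier results of these data known.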

Additional observations from a re-analysis of the deposited data

How the results depend on the processing

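The P450 share of gene counts was 1.05% against totals that omit the 10 genes with the highest mean CPM, which makes each total smaller, and ranged from 0.971% to 1.01% on leaving out each library; without Cyp4g1, a setting added after seeing the data, it was 0.641%. Without Cyp4g1 the clan shares were 1.81%, 56.1%, 31.7% and 10.4% for CYP2, CYP3, CYP4 and mitochondrial. The number of variable P450 genes was 2 with a common dispersion, 1 with DESeq2 size factors or no filter, and 0 on leaving out any single library. Without libraries 1, 2 and 3, 3, 3 and 2 P450 genes had an unadjusted edgeR p below the threshold, beside 4.15%, 4.01% and 4.33% of all genes tested. Over all genes the count was 216, and 81 to 121 on leaving out each library, where only 1 degree of freedom remains. Detected members numbered 72, and between 68 and 76 under the other settings. The median deviations kept their signs in every library under the other pseudocount, TMM scaling and all members with a count. After TMM scaling the levels of the 33 named members moved by less than 1 SD. The mean of Cyp4ad1, 2.41 CPM, was 1.51 CPM without library 1, a change of over 1.5 times. Levels per kilobase of coding length were not run, because coding lengths were not among the tables used here. No paired analysis was possible because there is only 1 group. At a few counts per library, as for Cyp313a2, depth limits any comparison.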
